A study of Mus musculus with 12 samples.

Results

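The levels of 10 chemokine ligand genes were followed in CD11c-enriched cells of lymph nodes that drain a tumour, in mice lacking apolipoprotein E and in wildtype mice. The 10 genes are rows of a deposited table of read counts for 24499 gene symbols. They were chosen by name, with earlier results of these data known. They are the macrophage-associated ligands Ccl6, Ccl9, Cxcl16, Ccl8, Ccl3 and Ccl4, the stromal ligands Cxcl13, Cxcl12 and Ccl21a, and the interferon-driven ligand Cxcl9. These group names follow textbook roles, and the cells that made each ligand in these samples were not identified. All 10 stand in the table, 9 had reads and passed the filter on low counts, and Ccl21a was at 0 in every library. A wider list of 41 mouse chemokine ligands serves as their setting.

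The control group, labelled wildtype, came from C57BL6 mice, and the other group, labelled APOE-KO, from APOE-KO mice. Both groups carried E0771-cOC tumours, E0771 being a mouse mammary carcinoma line, and nodes were taken 9 days after injection. Nodes were minced and digested, and cells were then enriched on magnetic beads against CD11c, an integrin of dendritic cells and some macrophages. There were 12 libraries sequenced from the 3' end of transcripts, 6 a group, with 2381477 to 4898360 counts each. Nothing in the labels ties each library to its own animal, and p-values therefore measure only how far these samples spread, which may be technical. Apoe itself had 838 to 2919 reads in the wildtype libraries and 13 to 30 in the APOE-KO libraries. Itgax, which encodes CD11c, had a mean of 278 CPM (SD 54.0, n = 6) in the wildtype libraries and 298 CPM (SD 36.9, n = 6) in the APOE-KO libraries. CPM is a gene's count scaled to a common library size. The ribosomal RNA gene Rn45s took 2.71% to 32.2% of a library's counts. Wildtype libraries 1 and 3 and APOE-KO library 5 stood apart from the rest in principal components, and each result below that changes without them says so.

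Chemokines are small secreted proteins that steer leukocytes through G protein-coupled receptors. Homeostatic ligands lay out the compartments of a resting node: Cxcl13 draws B cells into follicles through Cxcr5, Ccl21a draws T cells and mature dendritic cells into the T zone through Ccr7, and Cxcl12 acts on Cxcr4. Inflammatory ligands are induced in macrophages and other cells on activation, among them Ccl3 and Ccl4, and Cxcl9, which interferon gamma induces and Cxcr3 reads.

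Of the 9 ligands tested, 3 were higher in APOE-KO, namely Cxcl13 (2.30-fold), Ccl6 (1.74-fold) and Cxcl16 (1.72-fold), and 0 were lower at an adjusted p under 0.05 in edgeR's quasi-likelihood test. Over all 10714 genes tested, 1.49% passed, 1.08% higher and 0.411% lower. Because the ligands were chosen with earlier results of these data known, these shares do not test the ligands as a group. At an unadjusted p under 0.05, 4 ligands were higher and 3 lower, beside 12.1% of all genes tested (6.27% higher, 5.81% lower). DESeq2 and limma-voom each called 3 ligands higher and 0 lower at an adjusted p under 0.05. Of the 10714 genes, DESeq2 called 194 higher and 103 lower, and limma-voom 123 higher and 44 lower. For Cxcl13, Ccl6 and Cxcl16 every APOE-KO library lay above every wildtype library. Of all genes tested, 1.77% had groups that did not overlap, 1.23% with APOE-KO above. Ccl9, Ccl8, Ccl4, Cxcl12, Ccl3 and Cxcl9 had groups that overlapped and did not pass.

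**Figure D1:**
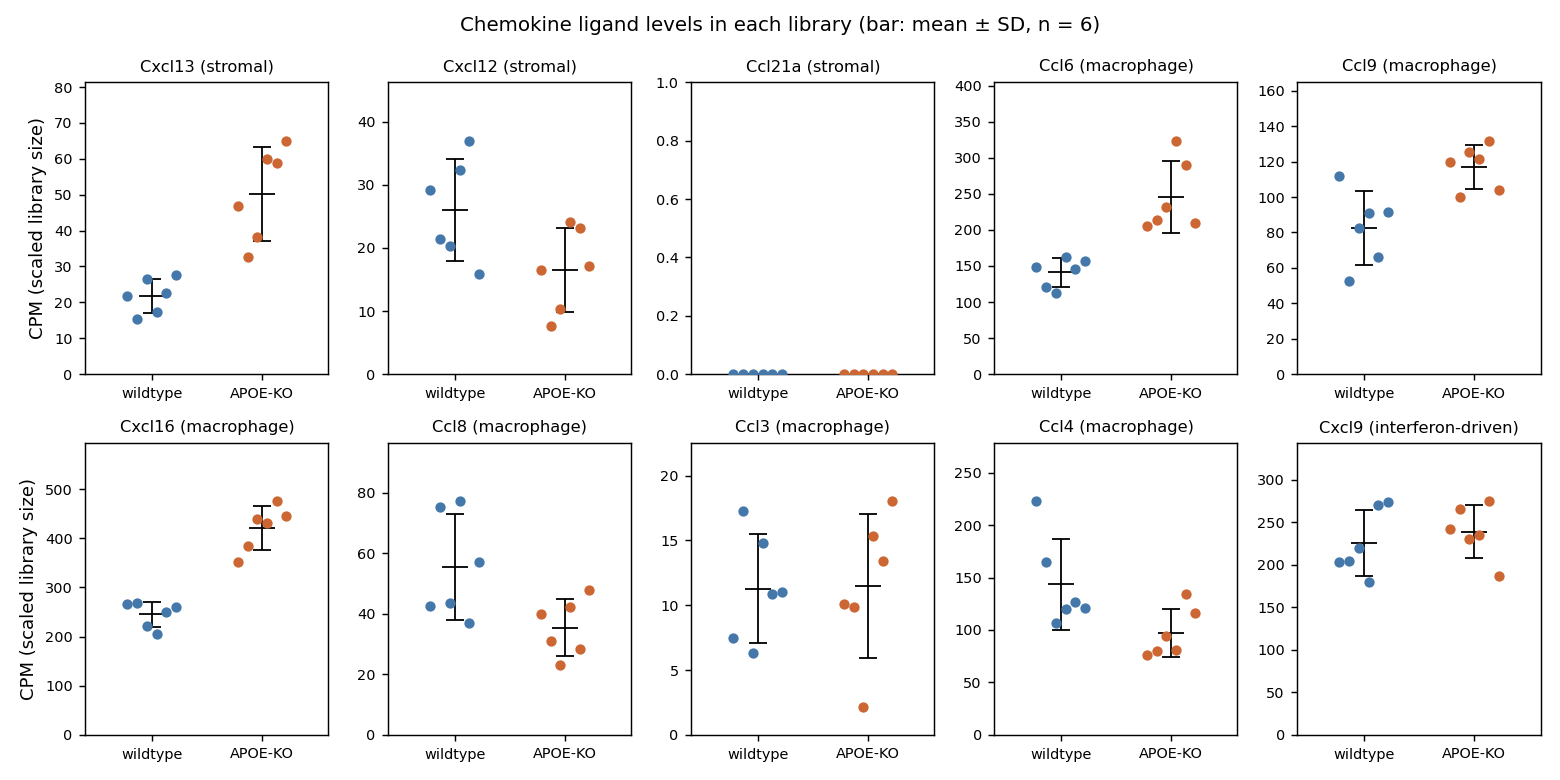
Level of each of the 10 ligands (y axis, CPM from 0) in the 6 wildtype and 6 APOE-KO libraries (points), with the mean and SD as bars. Cxcl13, Ccl6 and Cxcl16 show 2 separate clouds with APOE-KO above, the other ligands with reads overlap, and Ccl21a lies at 0 throughout.

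The stretches just before the transcription start are shown for 2 ligands that rose (Cxcl13 and Ccl6), for Ccl9, the gene next to Ccl6, and for Cxcl9, whose level did not differ detectably. They are RefSeq sequences on GRCm38.p6, 250 bases each, 5' to 3' on the gene's own strand and ending at the base before the start. The Cxcl13 stretch is chr5:95956689-95956938 on the plus strand, and those of Ccl6, Ccl9 and Cxcl9 are chr11:83593088-83593337, chr11:83578637-83578886 and chr5:92328080-92328329 on the minus strand. Capitals mark matches to the motifs searched.
Cxcl13: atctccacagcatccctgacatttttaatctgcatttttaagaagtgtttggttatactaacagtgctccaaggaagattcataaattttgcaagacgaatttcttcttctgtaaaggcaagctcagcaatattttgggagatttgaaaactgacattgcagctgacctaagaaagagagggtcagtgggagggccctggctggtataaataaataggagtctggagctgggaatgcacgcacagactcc
Ccl6: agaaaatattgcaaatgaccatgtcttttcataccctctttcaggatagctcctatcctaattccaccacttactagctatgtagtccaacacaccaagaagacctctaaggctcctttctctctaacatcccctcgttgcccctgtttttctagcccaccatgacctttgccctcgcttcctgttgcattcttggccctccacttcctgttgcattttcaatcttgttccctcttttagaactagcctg
Ccl9: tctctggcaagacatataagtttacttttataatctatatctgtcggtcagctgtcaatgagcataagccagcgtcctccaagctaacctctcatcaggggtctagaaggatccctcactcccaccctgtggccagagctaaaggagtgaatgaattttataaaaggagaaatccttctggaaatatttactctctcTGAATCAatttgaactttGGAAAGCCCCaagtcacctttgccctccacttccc
Cxcl9: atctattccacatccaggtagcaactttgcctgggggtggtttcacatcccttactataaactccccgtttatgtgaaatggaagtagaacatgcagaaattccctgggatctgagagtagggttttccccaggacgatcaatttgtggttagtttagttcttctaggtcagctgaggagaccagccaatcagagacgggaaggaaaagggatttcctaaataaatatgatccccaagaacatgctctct

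Both strands were searched for the GAS element of interferon gamma targets (TTCNNNGAA, in 7.18% of 27025 promoters of the same length), the interferon response element ISRE (GAAA, any 2 bases, GAAA; 3.04%), an NF-kB form (GGG, any 3 bases, TTCC; 4.60%), AP-1 (TGANTCA, 6.87%), the PU.1 core (GAGGAA, 23.1%), a cyclic AMP response element (TGACGTCA, 1.62%) and the tandem half-sites of liver X receptors (AGGTCA on both sides of any 4 bases, in 3 promoters). Matches in different motifs did not overlap in these stretches. Ccl9 held an NF-kB match from -35 to -26 and an AP-1 match from -53 to -47, counted back from the start. The AP-1 pattern searched allows any base at its centre, and in Ccl9 that base was A (TGAATCA). Ccl3, Ccl8 and Ccl21a each held 1 PU.1 match. The stretches of Cxcl13, Ccl6, Cxcl9 and Cxcl12 held none of these letters in this window. Ccl4 and Cxcl16 were not matched in the promoter table.

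Cxcl13 had the largest fold change of the 9 ligands tested. It lies on chromosome 5 from 95956951 to 95961068 (GRCm38, plus strand, a protein-coding gene). Its lowest, median and highest levels were 15.3, 22.2 and 27.5 CPM in wildtype and 32.6, 52.9 and 65.1 CPM in APOE-KO, on 41 to 151 and 99 to 307 reads a library. All 6 APOE-KO libraries were above the highest wildtype library, and the spread was 22.2% of the mean (coefficient of variation) in wildtype and 26.1% in APOE-KO. The log2 fold change was 1.20 ± 0.21 (SE; 95% interval 0.77 to 1.64), with an adjusted p of 0.00219 in edgeR's test. It passed in each of the 12 fits without 1 library, with log2 fold changes from 1.12 to 1.30 and adjusted p from 0.00102 to 0.00897, and did not with the epithelial covariate described below (adjusted p = 0.0993 in edgeR's test).

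Cxcl12, made by reticular and endothelial cells of the node, had 15.9, 25.3 and 37.0 CPM in wildtype and 7.58, 16.8 and 24.2 CPM in APOE-KO (lowest, median and highest). Every APOE-KO library was below the wildtype median, but only 2 were below the lowest wildtype library. Its log2 fold change was -0.65 (95% interval -1.22 to -0.07, adjusted p = 0.345 in edgeR's test), so the stromal ligands did not share a direction in these values. The difference between the changes of Cxcl13 and Cxcl12 was not tested. Cxcl12 reads per read of Cxcl13 ran from 0.577 to 1.87 in wildtype and from 0.232 to 0.404 in APOE-KO. Those ranges do not overlap, and when set against Cxcl13 the same held, in that direction, for 30.6% of all tested genes. Of 9 such ratios computed, chosen after values were seen, 6 did not overlap between genotypes. They include Ccl4 and Ccl8 per read of Ccl6, both lower in APOE-KO, as were 22.2% of all tested genes against Ccl6.

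Markers of stroma are given as measured beside the stromal ligands. In bulk samples, fewer cells of a type and less RNA per cell cannot be told apart. Of 16 markers of reticular stroma, 10 were tested and 0 passed in edgeR, DESeq2 or limma-voom (2 were lower at an unadjusted p under 0.05, beside 5.81% of all genes tested). Of the 10, 6 had a negative and 4 a positive log2 fold change, beside 47.2% positive over all genes tested. Their summed level was 392 to 560 CPM in wildtype and 346 to 426 CPM in APOE-KO. Most of that sum was Gsn, which encodes an actin-severing protein also made outside stroma, with means of 306 and 260 CPM (wildtype, then APOE-KO). The 2 markers lower at an unadjusted p under 0.05 in edgeR's test were Sparc (41.8 and 27.2 CPM) and Bgn (13.2 and 7.45 CPM). The collagen Col1a1 had 5.23 and 3.78 CPM, and the receptor Pdgfrb, which was below the filter, 2.79 and 2.09 CPM. The proteoglycan Dcn had 15.8 and 18.0 CPM, and podoplanin (Pdpn) 2.61 and 3.28 CPM. With the mean of the stromal markers as a covariate, Cxcl13 kept a log2 fold change of 1.24 (adjusted p = 0.00313 in edgeR) and that of Cxcl12 was -0.41 (adjusted p = 0.60). Over all 22 alternatives Cxcl12 ran from -0.80 to -0.22, the latter with the mean of the lymph node macrophage markers as a covariate.

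Of 8 markers of follicular dendritic cells and neighbouring follicular stroma, 6 were tested. Clu rose (119 ± 21.9 to 179 ± 19.2 CPM, adjusted p = 0.0228) and Fcer2a, which B cells also carry, fell (136 ± 39.8 to 84.2 ± 15.7 CPM, adjusted p = 0.047), both in edgeR's test. Over all genes tested, 1.08% rose and 0.411% fell in that test. DESeq2 called 3 of these markers lower, among 103 of all genes tested, and limma-voom 0, among 44. The summed level of the 8 markers was 611 to 838 CPM in wildtype and 642 to 834 CPM in APOE-KO. Below the filter and chosen after their values were seen, Madcam1, an adhesion molecule of follicular stroma and vessels, had 32 reads over wildtype and 113 over APOE-KO, and Coch had 8 and 97. Both had more reads in APOE-KO, as Cxcl13 did, while 4 of the 6 tested markers had a negative log2 fold change. Among those, Enpp2 had 67.5 and 41.6 CPM in wildtype and APOE-KO and Sox9 10.2 and 3.72 CPM (adjusted p = 0.0868 and 0.157 in edgeR), and both were called lower by DESeq2. The part of these markers in the result for Cxcl13 was not tested.

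Ccl21a was at 0 reads in all 12 libraries, and so were the other T zone ligand Ccl19 and the listed copies Ccl21b and Ccl21c. A count of 0 allows up to 3 reads, or 0.525 to 1.59 CPM depending on the library. Ccl21a lies on chromosome 4 from 42772860 to 42773993 (GRCm38, minus strand). Of the 50-base words in the last 400 bases of its GENCODE vM21 transcript, 68.9% also stand in transcripts of Gm13304 or Gm21541, which are themselves at 0 reads. For Ccl19 the share was 61.5%, for Ccl21b it was all of them, and for each of the 9 ligands described with reads it was 0. The sources used here do not say how reads with several matches were counted. The 0 of Ccl21a therefore limits the reads assigned to that symbol, not the level of its RNA.

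Among the macrophage-associated ligands, 2 of 6 rose and 0 fell, beside 1.08% higher and 0.411% lower over all genes tested. Ccl6, a CC chemokine of myeloid cells that acts on Ccr1, lies on chromosome 11 from 83587882 to 83593087 (minus strand) and overlaps E230016K23Rik on the other strand. Its levels were 112, 147 and 162 CPM in wildtype and 205, 223 and 324 CPM in APOE-KO (lowest, median and highest), the highest being APOE-KO library 4. The groups did not overlap, and its log2 fold change was 0.80 ± 0.14 (SE; 95% interval 0.50 to 1.10; adjusted p = 0.00254 in edgeR's test). It passed in all 12 fits without 1 library.

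Cxcl16 is made as a membrane protein that also takes up oxidised lipoprotein, and its shed form acts on Cxcr6. It lies on chromosome 11 from 70453983 to 70459984 (minus strand) and overlaps Zmynd15 on the other strand. Of the 50-base words in the last 400 bases of the Cxcl16 transcript, 0 were shared with another gene, Zmynd15 included. Sequence of Cxcl16 outside those bases was not compared. Levels were 206, 255 and 269 CPM in wildtype and 351, 436 and 475 CPM in APOE-KO. Its libraries were the tightest of the 9 ligands, with a coefficient of variation of 10.5% in wildtype, and in APOE-KO that of Cxcl16 (10.7%) and that of Ccl9 (10.6%) were the smallest. The log2 fold change was 0.78 ± 0.12 (SE; 95% interval 0.54 to 1.03; adjusted p = 0.000473 in edgeR's test), and it passed in all 12 fits without 1 library but not with the epithelial covariate (adjusted p = 0.123).

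Ccl9, the neighbour of Ccl6 and also a ligand of Ccr1, had 52.6, 87.0 and 112 CPM in wildtype and 99.9, 121 and 132 CPM in APOE-KO. All 6 APOE-KO libraries were above the wildtype median and 4 were above the highest wildtype library, which was wildtype library 1. Its log2 fold change of 0.51 (95% interval 0.18 to 0.84) did not pass after adjustment over all genes (adjusted p = 0.144 in edgeR's test). A change of the size seen for Ccl6 lies inside that interval.

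Ccl8, a ligand that tissue macrophages secrete and Ccr8 reads in the mouse, had 37.0, 50.4 and 77.1 CPM in wildtype and 23.1, 35.5 and 47.9 CPM in APOE-KO. Each APOE-KO library was below the wildtype median, 3 of them below the lowest wildtype library. The log2 fold change was -0.64 (95% interval -1.08 to -0.20, adjusted p = 0.167 in edgeR's test).

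Ccl4, an inflammatory ligand of activated macrophages and lymphocytes, had 106, 124 and 223 CPM in wildtype and 76.5, 87.8 and 134 CPM in APOE-KO, with wildtype library 1 the highest. In APOE-KO, 4 of 6 libraries were below the lowest wildtype library. The log2 fold change was -0.56 (95% interval -0.93 to -0.18, adjusted p = 0.158). Leaving out together wildtype libraries 1 and 3 and APOE-KO library 5 gave -0.57 with an adjusted p of 0.0449, past the threshold, all in edgeR's test. Ccl3, its neighbour and a ligand of Ccr1, gave only 6 to 85 reads a library. Its levels were 6.30, 11.0 and 17.3 CPM in wildtype and 2.14, 11.8 and 18.0 CPM in APOE-KO, with a log2 fold change of 0.03 (95% interval -0.74 to 0.81). That interval holds a 1.5-fold difference in either direction, so one of that size was not detectable for Ccl3 at this depth.

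Chemokine genes often lie in clusters, and 6 of the 10 ligands could be set beside their neighbours. On chromosome 11, Ccl9 and Ccl6 are 9.2 kb apart and Ccl3 and Ccl4 13.2 kb. Along the order Ccl5, Ccl9, Ccl6, Ccl3, Ccl4, the log2 fold changes were 0.65, 0.51, 0.80, 0.03 and -0.56, and only Ccl6 passed. Ccl4 reads per read of Ccl9, a ratio free of scaling, were 1.29 to 3.13 in wildtype and 0.639 to 1.11 in APOE-KO. They did not overlap, and against Ccl9 the same held for 4.97% of all tested genes in that direction.

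In the other cluster on chromosome 11, Ccl8 lies 11.8 kb from Ccl12. Ccl2 and Ccl12 had log2 fold changes of 0.82 and 0.95, and Ccl7 and Ccl8 of -1.55 and -0.64, none past the threshold (adjusted p from 0.167 to 0.417 in edgeR's test). Ccl7 gave 158 reads over wildtype and 65 over APOE-KO. Ccl8 reads per read of Ccl12 were 4.16 to 13.2 in wildtype and 1.06 to 4.04 in APOE-KO. Against Ccl12, 3.56% of all tested genes had such ranges in that direction.

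**Figure D2:**
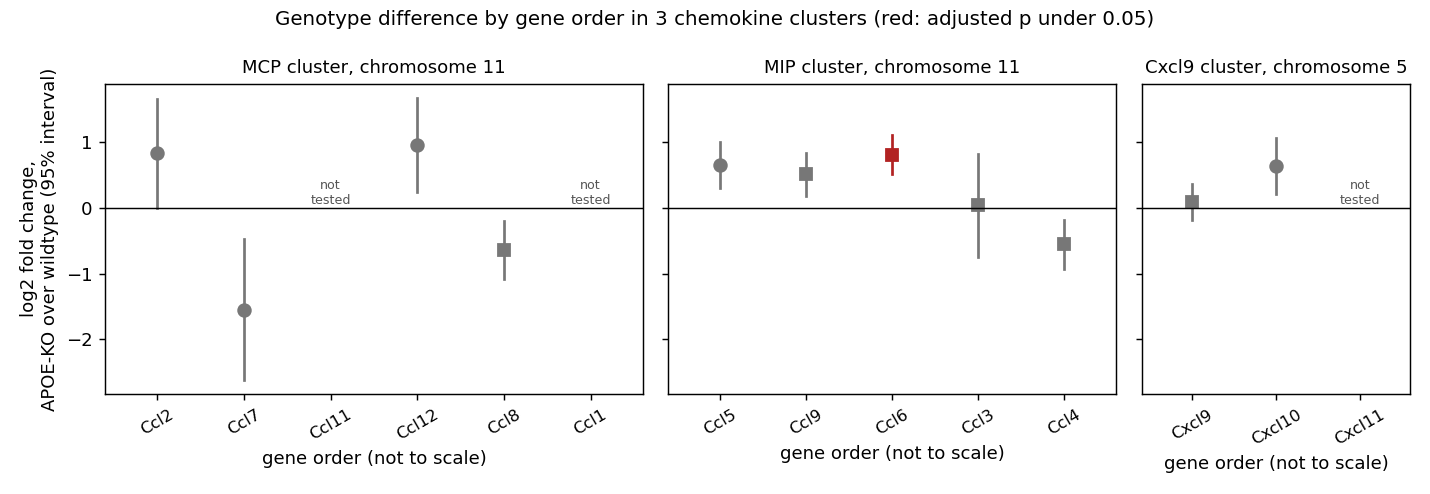
Log2 fold change of APOE-KO over wildtype with its 95% interval (y axis) for genes in their order along 3 chemokine clusters (x axis, not to scale), with squares for the ligands described and red for an adjusted p under 0.05. Ccl6 alone is red, Ccl4, Ccl7 and Ccl8 lie below 0, and the others tested lie above 0.

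Cxcl9, the interferon-driven ligand on chromosome 5 from 92321347 to 92328079 (minus strand), did not differ detectably. It had 179, 212 and 274 CPM in wildtype and 186, 238 and 274 CPM in APOE-KO, and the groups covered nearly the same range. Its log2 fold change was 0.09 ± 0.13 (SE; adjusted p = 0.872 in edgeR's test), and the 95% interval of -0.19 to 0.36 leaves out the changes seen for Ccl6, Cxcl16 and Cxcl13. Cxcl10, which lies 18.6 kb away and shares the receptor Cxcr3, had 48.1 ± 14.9 and 75.1 ± 19.0 CPM (SD, n = 6 each; log2 fold change 0.64, adjusted p = 0.157), and Cxcl11 did not reach the filter. Cxcl16 reads per read of Cxcl9 were 0.927 to 1.32 in wildtype and 1.45 to 2.39 in APOE-KO, while 0.308% of all tested genes rose against Cxcl9 without overlap.

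Of 21 genes of the interferon gamma response, 19 were tested and 1 rose, beside 1.08% of all genes tested. At an unadjusted p under 0.05, 3 were higher and 2 lower (12.1% of all genes tested). The gene that rose was Cd274, which encodes the checkpoint ligand PD-L1 (37.3 ± 9.45 to 67.7 ± 18.2 CPM, adjusted p = 0.0213 in edgeR's test). The list's median log2 fold change was 0.19, beside -0.02 over all genes tested. Irf1, a transcription factor that interferon gamma induces, had a log2 fold change of -0.05. Ifng itself gave 150 reads over wildtype and 111 over APOE-KO. Cd274 did not pass without wildtype library 6 (adjusted p = 0.0604), without APOE-KO library 4 (0.0798), without APOE-KO library 6 (0.0609) or with the epithelial covariate described below (0.263), all in edgeR's test.

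Of the 31 other ligands on the list, 13 were tested, 7 had no read in any library, and 1 rose, beside 1.08% of all genes tested. This was Ccl22, a ligand of mature dendritic cells that acts on Ccr4, which went from 208 ± 53.9 to 344 ± 60.9 CPM with groups that overlapped (adjusted p = 0.0133 in edgeR's test, log2 fold change 0.73). Of the 13, 11 had a positive log2 fold change, beside 47.2% of all genes tested. The median of the 13 was 0.64, beside -0.02 over all genes tested. Ccl5, a ligand made by T cells, NK cells and activated myeloid cells, had 1315 ± 423 and 2057 ± 377 CPM, with an adjusted p of 0.0523 in edgeR. It passed in DESeq2 (0.0156) and limma-voom (0.032). Ccl17, which also acts on Ccr4, had 39.9 ± 15.2 and 69.9 ± 17.2 CPM (adjusted p = 0.106).

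**Figure D3:**
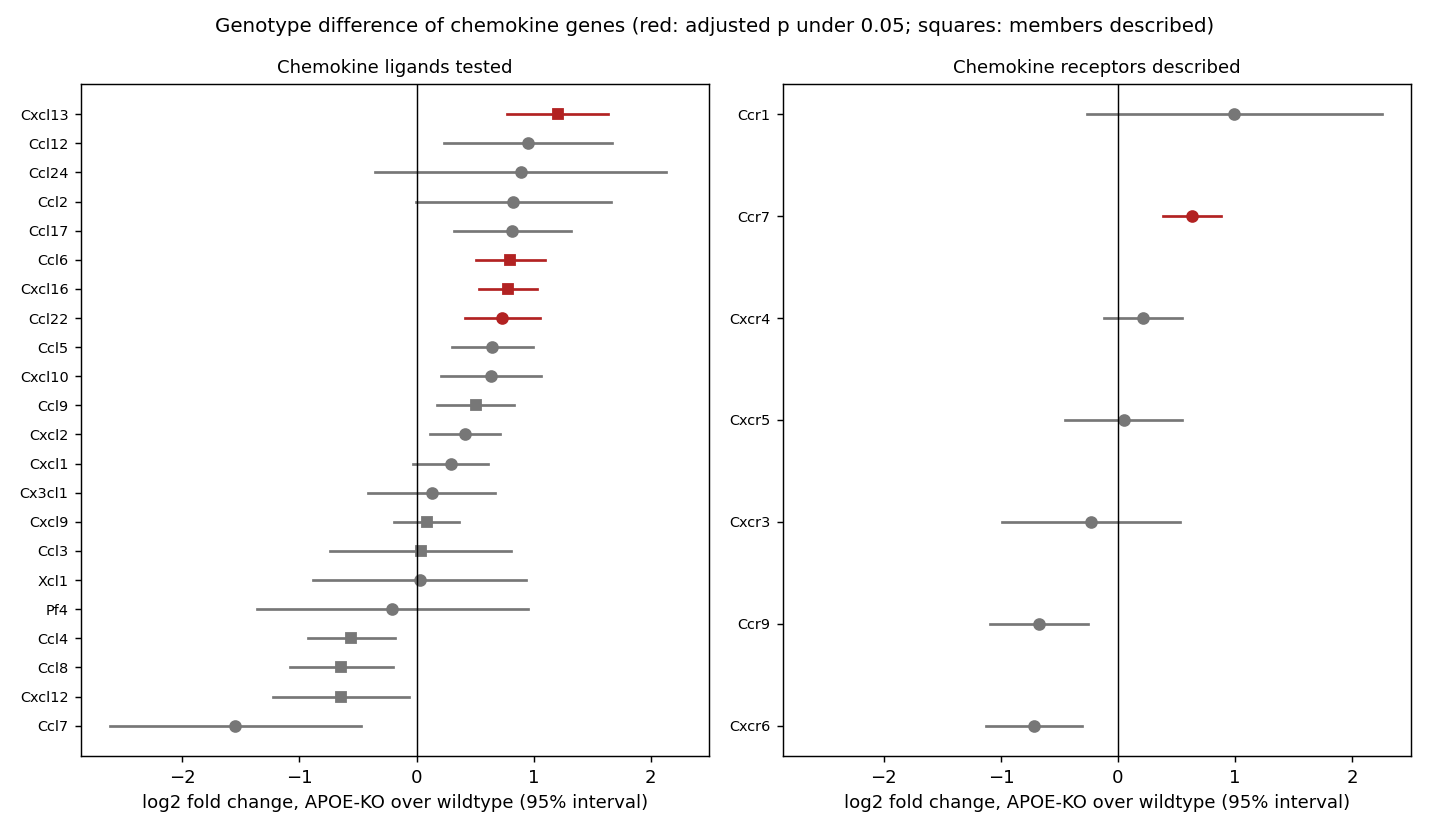
Log2 fold change of APOE-KO over wildtype with its 95% interval (x axis) for the 22 ligands tested and 7 of the receptors tested, with squares for the ligands described and red for an adjusted p under 0.05. Cxcl13, Ccl6, Cxcl16 and Ccl22 are red among ligands, at 0.73 to 1.20, and Ccr7 alone among receptors.

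Receptors were read beside their ligands. Of 24 chemokine receptors 15 were tested, 1 rose and 0 fell in edgeR's test, with a median log2 fold change of -0.12. Over all genes tested, 1.08% rose and 0.411% fell in that test. At an unadjusted p under 0.05, 2 of the 15 were higher and 3 lower (12.1% of all genes tested). DESeq2 called Cxcr6 and Ccr9 lower, among 103 of all genes tested, and limma-voom called 0 receptors lower. Ccr7, the receptor of Ccl21a, rose from 699 ± 94.1 to 1082 ± 147 CPM (adjusted p = 0.00444 in edgeR's test). Cxcr5, the receptor of Cxcl13, had 20.3 ± 3.97 and 21.0 ± 6.25 CPM, with a 95% interval of the log2 fold change from -0.45 to 0.55. Cxcr6, the receptor of Cxcl16, had 33.5 ± 5.74 and 20.4 ± 3.90 CPM (log2 fold change -0.72, adjusted p = 0.0764 in edgeR and 0.0223 in DESeq2).

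Ccr1, the receptor of Ccl6 and Ccl9, gave 52 reads over wildtype and 103 over APOE-KO. Its log2 fold change of 0.99 had a 95% interval from -0.27 to 2.25. Cxcr3 had 11.7 ± 4.94 and 9.86 ± 5.62 CPM (adjusted p = 0.875) and Cxcr4 115 ± 29.8 and 134 ± 18.8 CPM (adjusted p = 0.653), both in edgeR's test. Ackr3, a scavenging receptor of Cxcl12, and Ccr8, the receptor of Ccl8, did not reach the filter, with 28 and 6 reads and 7 and 1 reads over wildtype and APOE-KO.

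Genes that process or relay these ligands were mostly without a call. Adam10 and Adam17, the proteases known to shed Cxcl16, had log2 fold changes of 0.03 and 0.09. Of 9 processing genes 2 rose in edgeR's test, beside 1.08% of all genes tested. They were the matrix metalloproteinases Mmp12 (47.9 ± 19.3 to 136 ± 56.8 CPM, adjusted p = 0.00111) and Mmp14 (121 ± 19.6 to 181 ± 33.9 CPM, adjusted p = 0.0449). Mmp14 passed in 4 of the 12 fits without 1 library, and not without the 3 libraries that stood apart (adjusted p = 0.0574 in edgeR's test). Of 21 receptor signalling genes 0 passed in edgeR or limma-voom (2 higher and 4 lower at an unadjusted p under 0.05, beside 12.1% of all genes tested), and DESeq2 called Rgs1 higher. Of 10 lymphotoxin and NF-kB2 genes and 15 early NF-kB genes, 0 passed in edgeR, DESeq2 or limma-voom. Their median log2 fold changes were 0.19 and 0.23, and at an unadjusted p under 0.05 the first had 2 higher and the second 4 higher and 1 lower (12.1% of all genes tested). Tnf, induced with Ccl3 and Ccl4 in activated macrophages, had 21.7 ± 7.36 and 37.4 ± 12.8 CPM (adjusted p = 0.160 in edgeR's test).

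Markers of lymph node macrophages, beside which the macrophage-associated ligands are set, moved in both directions. In edgeR's test 1.08% of all genes tested rose and 0.411% fell. Of the 18 markers, 15 were tested and Vsig4 was at 0. Of these markers, 3 rose (Cd5l, C1qb and Lyz2) and 5 fell (Cd209b, Marco, Mrc1, Folr2 and Timd4). Their summed level overlapped, at 1662 to 2051 CPM in wildtype and 1760 to 2049 CPM in APOE-KO. With their mean as a covariate, Ccl6, Cxcl16 and Cxcl13 had log2 fold changes of 0.96, 0.88 and 1.43 and passed (adjusted p from 0.0037 to 0.00643 in edgeR), and those of Ccl8 and Ccl4 were -0.23 and -0.40, neither called.

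Epithelial markers had lower values in APOE-KO. Of 17 markers 7 were tested, all 7 with a negative log2 fold change, beside 47.2% positive over all genes tested. Cdh1 fell in edgeR and DESeq2, limma-voom called 4 lower, and 6 were lower at an unadjusted p under 0.05, beside 5.81% of all genes tested. Wap was at 0 in both groups, and the markers summed to 110 to 187 CPM in wildtype. In APOE-KO these markers summed to 124 CPM in library 4 and to 8.90 to 44.8 CPM in the other libraries. With their mean as a covariate, which leaves a wider error, Ccl6 passed with a log2 fold change of 0.96 ± 0.21 (SE; adjusted p = 0.0385). Cxcl13 had 1.23 ± 0.30 (adjusted p = 0.0993) and Cxcl16 0.69 ± 0.18 (adjusted p = 0.123), and neither passed. Apart from APOE-KO library 4, the epithelial marker levels followed genotype. In this fit a difference by genotype and one by epithelial content therefore cannot be told apart. Ccl22 had 0.79 ± 0.23 (adjusted p = 0.25), and Ccl4 had -0.96 (adjusted p = 0.214), all in edgeR's test. Of 14 endothelial markers 10 were tested, all with a negative log2 fold change, and 0 were called in edgeR, DESeq2 or limma-voom. At an unadjusted p under 0.05, 3 were lower, beside 5.81% of all genes tested. The endothelial sums were 545 to 1331 CPM in wildtype and 384 to 1389 CPM in APOE-KO. Much of these sums was Glycam1, with means of 650 and 559 CPM (wildtype, then APOE-KO). Of 14 dendritic cell markers, all tested, Sirpa (251 to 351 CPM, adjusted p = 0.0382) and Ccr7 rose in edgeR's test. Siglech, a marker of plasmacytoid cells, fell in that test (302 to 136 CPM, adjusted p = 0.0133). Over all genes tested, 1.08% rose and 0.411% fell. DESeq2 also called Fscn1 higher and Tcf4 lower, and limma-voom called 3 higher and 1 lower. H2-Ab1, with means of 3071 and 3041 CPM (wildtype, then APOE-KO), was a large part of the dendritic sums. Sums of dendritic cell markers were 6449 to 7483 and 6920 to 8319 CPM, of monocyte and neutrophil markers 776 to 1155 and 706 to 985 CPM, of B cell markers 537 to 596 and 436 to 548 CPM, and of T and NK cell markers 698 to 876 and 635 to 746 CPM.

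**Figure D4:**
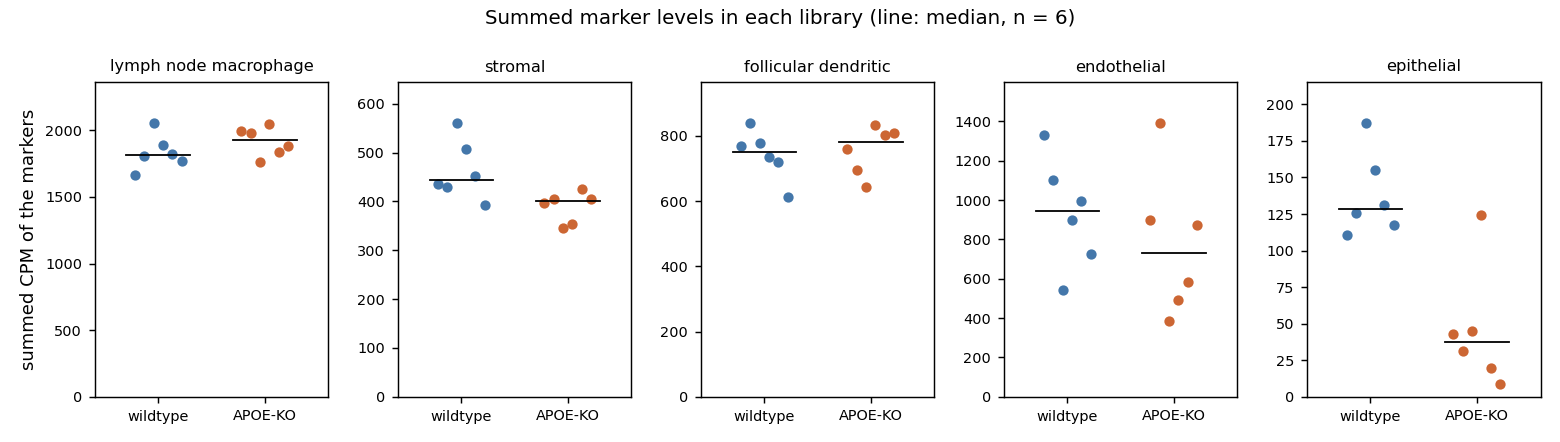
Summed level of 5 marker lists (y axis, CPM from 0) in each library (points; line, median of 6) by genotype. The epithelial sum is 8.90 to 124 CPM in APOE-KO against 110 to 187 CPM in wildtype, and APOE-KO library 4 alone makes these ranges overlap. The ranges of the other 4 lists overlap as well.

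After each genotype's mean was taken off, log2 CPM over the 12 libraries described how the 9 ligands varied within a genotype, by Pearson's r and Spearman's rho with no test. Over all pairs r ran from -0.55 (Ccl8 and Cxcl9) to 0.74. Libraries share depth and cell mixture, so such values describe these libraries. Ccl8 and Ccl3 had r = 0.74 (rho 0.85, and r = 0.71 without the 2 libraries farthest from the median of Ccl8), and Cxcl16 and Ccl4, which differed in direction between genotypes, had r = 0.72 (rho 0.87, and 0.77). Ccl6 and Ccl9 had r = 0.47 (rho 0.58), Cxcl13 and Cxcl12 0.44 (rho 0.27, and 0.09 without the 2 farthest libraries, on which it rests), and Ccl3 and Ccl4 0.10 (rho 0.22).

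On the same scale, the gene most like Ccl6 of all tested was Lgals3, which encodes galectin-3, a lectin of activated macrophages (r = 0.92, rho 0.92, and 0.92 without the 2 farthest libraries). Lgals3 itself rose, with a log2 fold change of 0.95 (adjusted p = 0.000132 in edgeR's test). Next for Ccl6 were Pecr and Nek9 (r = 0.86 each). For Cxcl13 the 3 most alike were Ebna1bp2, the lipid droplet gene Plin2 and Tor1aip1 (r from 0.86 to 0.88). For Cxcl16 they were Rfxank, Klk1 and Asph (0.85 to 0.88). Klk1 itself fell, opposite to Cxcl16, with a log2 fold change of -1.18 (adjusted p = 0.00456 in edgeR's test). For Cxcl12 they were Cd38, Ust and Cd59a (0.86 to 0.88). Ccl9 went with Med22, Ddx39 and Stradb (0.87 to 0.89), and Ccl8 with Gja4, Zswim3 and Hmox1 (0.85 to 0.90). For Ccl3 they were Orc6, Mast2 and Polg2 (0.90 to 0.95), for Ccl4 Pak4, Znhit1 and Dhx34 (0.89 to 0.94), and for Cxcl9 Zak, Ripk1 and Cog7 (0.81 to 0.87). These genes were picked as the highest of all tested, which by itself gives a high r for every ligand.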

How the data were processed

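Lexogen 3' FWD libraries of CD11c-enriched lymph node cells were analysed from deposited whole-number read counts per gene symbol, not normalised. The submitters' processing notes name STAR 2.7.8a, featureCounts 1.5.1, R 4.1.0, DESeq2 1.4 and mm10. Annotation, strand setting and molecular identifiers: not given in the sources used here. Counts from 3' libraries do not grow with gene length, and the floor behind a count of 0 covers counting error only.

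Columns were matched to samples by the labels' short descriptions. In R 4.3.3, edgeR 4.0.16 kept 10714 genes (filterByExpr, minimum count 10, minimum total 15), scaled by TMM and ran the quasi-likelihood test on genotype with Benjamini-Hochberg adjustment over all of them. SEs come from the F statistic, and intervals are 95% and include the spread between libraries. Log2 CPM used a prior count of 2. The test was tried on independent counts simulated from the mean levels and fitted dispersions of these data. Such counts cannot show effects of outlying libraries, shared animals or cell mixture. Alternatives included DESeq2 1.42.0, limma-voom (limma 3.58.1), other scalings, no filter, a replicate block, marker covariates and leaving out libraries. Named genes are the members, list genes that passed, the members' receptors, Cxcl10, Ccl19, Ccl5 and the 3 most correlated genes of each member (no Gm or Rik names); others were named after their values were seen, and some genes under the rule are not reported here. The members and lists were chosen with earlier results of these data known. No libraries agreed within sampling noise. Positions are from GENCODE vM21 (GRCm38).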

Additional observations from a re-analysis of the deposited data

Results flagged for a closer look

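Of 44 groups examined (22 chemokine and related genes in each genotype), 1 held a library far from the others, where chance flags about 1 in 20. Cxcr3, the receptor of Cxcl9, stood at 20.6 CPM in APOE-KO library 5 and at 5.37 to 11.0 CPM in the other APOE-KO libraries. No member ligand had such a library in either genotype.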

How the results depend on the processing

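Of 22 alternatives, Cxcl13 and Cxcl16 kept their calls in 21 and Ccl6 in all 22; the exception for both was the epithelial covariate, which left 1 ligand called (1 higher) and 36 genes in all (26 higher, 10 lower). The macrophage covariate left 84 genes (68 higher, 16 lower). With wildtype libraries 1 and 3 and APOE-KO library 5 left out together, 1 ligand, Ccl4, was called lower. DESeq2 called 297 genes in place of 160 (194 in place of 116 higher, 103 in place of 44 lower), and no filter gave 68 lower. Without 1 library at a time, all calls ran from 98 (without APOE-KO library 3) to 227, higher ones from 72 (without APOE-KO library 3) to 163 and lower ones from 26 to 64, the lower count being 26 without APOE-KO library 3 and 29 without APOE-KO library 6, while the 3 ligands passed each time. Under the replicate block 100 genes passed (70 higher), and Cxcl13, Ccl6 and Cxcl16 still did; same-numbered libraries deviated together with correlations of -0.08 to 0.02, and 0 of 6 wildtype libraries correlated best with their own number. Ccl3 changed sign among alternatives (-0.26 to 0.89, never called), and Cxcl9 reached -0.00076 without those 3 libraries. Depth leaves wide intervals for low genes such as Ccl3, Ccl7 and Ccr1.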

Other observations

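Some low ligands and receptors outside the comparisons differed in their reads between genotypes, and all were below the filter and chosen after their values were seen. Cxcl14, a ligand of epithelium and stroma, had 62 reads over the 6 wildtype libraries, 42 of them in 1 library, and 1 read over the 6 APOE-KO libraries. Cxcl15 had 41 and 5 reads. Ccr3, an eosinophil receptor, had 65 and 21 reads, and Ccr4, the receptor of Ccl22 and Ccl17, had 18 and 53.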
